A study of Mus musculus with 9 samples.

Results

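Motile cilia genes were described across ventilator-induced lung injury (VILI) in the mouse lung. They are 36 named genes of the motile cilium, taken by symbol from the deposited expression table, and all 36 were found among 27203 genes and assembled loci. All 36 also passed the filter on low values, which left 19378 genes to test. RNA was measured in whole lungs of 9 male C57BL/6 mice aged 6 to 8 weeks, with 3 mice in each of 3 groups and 1 library per mouse. Control mice were intubated and not ventilated. VILI0h and VILI6h mice had 4 hours of high-stretch ventilation (tidal volume 20 ml/kg), and their lungs were taken 0 and 6 hours later. All mice, controls included, received ketamine and xylazine anesthesia, and the ventilated mice also received pancuronium. Because the controls were not ventilated at a low tidal volume, ventilation itself and overstretch cannot be told apart here. Values are FPKM, a count of sequenced fragments scaled by transcript length and by library size, summed over the rows that the table lists under 1 gene.

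Motile cilia cover the multiciliated cells of the airways and beat to move mucus out of the lung. Each cilium is built on an axoneme of doublet microtubules around a central pair, and dynein arms on the doublets drive the beat. Radial spokes and the dynein regulatory complex relay control to the arms. The transcription factors Foxj1, Rfx2 and Rfx3 switch on the genes of the axoneme during differentiation, and RFX factors bind sites that contain the letters GTTGCC.

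The members lie on 16 chromosomes, and their promoters are shown because RFX factors are themselves members. Of the 36 members, 30 had an entry among RefSeq promoter windows of GRCm38.p6, which run from 250 bases before a gene's start to 50 bases after it. The motif GTTGCC, searched on both strands (reverse GGCAAC), was in a window of 14 of these 30 genes (46.7%), and 14.1% of all 27025 genes with a window held it. The 14 genes were Ccdc113, Cfap44, Dnai2, Drc1, Hydin, Lrrc23, Rfx2, Rfx3, Spag16, Spef2, Tekt1, Tekt2, Tekt4 and Zmynd10. The longer motif GTTGCCATG, which contains the shorter one, was in 0 of 30 member genes and in 0.877% of all genes. A forkhead motif, TGTTTAC (reverse GTAAACA), was in 2 of 30 (6.67%), Ak7 and Cfap43, and in 4.05% of all genes. A match is a description of these letters and was not tested as a binding site. The 250 bases before the start are given below for 4 members that the results return to, on the strand of the gene, with motif matches in capitals. Rfx2 is at chr17:56831009-56831258 (minus strand), Tekt2 at chr4:126325689-126325938 (minus), Hydin at chr8:110266727-110266976 (plus) and Cfap43 at chr19:47837362-47837611 (minus).
Rfx2: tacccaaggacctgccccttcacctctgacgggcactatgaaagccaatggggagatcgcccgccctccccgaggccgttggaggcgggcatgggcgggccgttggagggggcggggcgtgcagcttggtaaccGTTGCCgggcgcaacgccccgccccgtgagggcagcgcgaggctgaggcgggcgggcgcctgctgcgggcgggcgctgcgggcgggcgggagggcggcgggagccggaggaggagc
Tekt2: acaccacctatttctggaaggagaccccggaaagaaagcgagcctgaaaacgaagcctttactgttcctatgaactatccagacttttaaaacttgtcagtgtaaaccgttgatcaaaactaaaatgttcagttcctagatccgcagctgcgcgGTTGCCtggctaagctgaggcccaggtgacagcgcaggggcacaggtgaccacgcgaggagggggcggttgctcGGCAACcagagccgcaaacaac
Hydin: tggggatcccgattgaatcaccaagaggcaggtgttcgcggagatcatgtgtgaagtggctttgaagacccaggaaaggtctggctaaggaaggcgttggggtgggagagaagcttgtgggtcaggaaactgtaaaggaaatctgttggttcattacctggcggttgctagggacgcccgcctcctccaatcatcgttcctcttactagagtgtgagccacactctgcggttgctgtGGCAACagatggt
Cfap43: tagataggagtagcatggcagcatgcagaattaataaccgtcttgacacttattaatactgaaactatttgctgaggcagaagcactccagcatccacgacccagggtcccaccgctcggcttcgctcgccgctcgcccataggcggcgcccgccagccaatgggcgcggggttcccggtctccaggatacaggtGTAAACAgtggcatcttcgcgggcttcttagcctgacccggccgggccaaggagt

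The Rfx2 stretch holds 1 forward match that begins 116 bases before the start. Tekt2 holds a forward match 96 bases and a reverse match 22 bases before its first listed start. Hydin has 1 reverse match 13 bases before the start. Cfap43 has no GTTGCC in its window and holds 1 reverse forkhead match 55 bases before its RefSeq start, which lies inside the longer GENCODE M21 model of the gene (chr19:47736857-47919287, minus strand) and not at that model's 5′ end.

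All 36 members were expressed in every library, with a mean over the 9 libraries of at least 1 FPKM, and 7 members had a mean of 10 FPKM or more. Tppp3, a tubulin-binding protein abundant in multiciliated cells, was highest at 111 FPKM, followed by Cfap43 at 22.7 and Foxj1 at 17.4 FPKM. Dnah2 was lowest at 2.38 FPKM. Tppp3 supplied between 22.2% and 38.0% of the summed FPKM of the members in a library. FPKM are scaled by length, which allows these levels to be compared between genes.

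The summed FPKM over all genes was 366360 to 388459 per library, and the table gives no number of fragments behind a gene's value, so precision rests on the spread of 3 lungs. The defining markers of ciliated cells were present: Ccdc153 ranged from 25.7 to 42.2 FPKM and Sntn from 4.85 to 12.2 FPKM over the 9 libraries. The club cell markers Scgb1a1, the secretoglobin of bronchiolar lining fluid, and Cyp2f2, a cytochrome P450, ranged from 22061 to 39012 and from 463 to 1185 FPKM. Neutrophil markers separated control from both VILI groups, which overlap each other: all 8 were higher than in control at an unadjusted P under 0.05 at both times, with sums of 48.7 to 57.0 FPKM in control, 563 to 1007 in VILI0h and 464 to 1987 in VILI6h. In whole tissue, fewer cells of a type and less RNA per cell cannot be told apart. Libraries of VILI6h differed most from each other, with a median ratio of highest to lowest of 1.55 over all genes, against 1.19 in control and 1.32 in VILI0h.

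No member was called in any comparison after Benjamini-Hochberg adjustment over all genes in limma. At an adjusted p under 0.05, 0 of 36 members were called at VILI0h against control (0.284% of all genes), 0 at VILI6h against control (0.702%) and 0 at VILI6h against VILI0h (0% of all genes). At an unadjusted P under 0.05, the threshold the study used, VILI0h against control gave 0 higher and 0 lower members (6.81% and 9.35% of all genes). VILI6h against control gave 1 higher member, Cfap43, and 1 lower, Tppp3 (8.17% and 12.2% of all genes). VILI6h against VILI0h gave 0 in either direction (5.06% higher and 4.94% lower of all genes). The count at VILI6h against control moved with single libraries of both groups. Without VILI6h replicate 1 the unadjusted count was 8 and the adjusted count 4, in a fit that called 38.8% and 23.3% of all genes, and without VILI6h replicate 3 the unadjusted count was 5, with 14.1% of all genes called. Without control replicate 2 or VILI6h replicate 2 it was 0, and without control replicate 1 or 3 it was 1 (13.1% to 14.5% of all genes called). The comparisons with control share the control libraries, and those with VILI0h share the VILI0h libraries.

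The intervals show how large a difference these 9 libraries leave room for. The 95% interval of the fold change lay within a 2-fold change in either direction for 34 of 36 members at VILI0h against control (62% of all genes). It did so for 35 at VILI6h against control (59.9% of all genes) and for 35 at VILI6h against VILI0h (66.6%). The shares over all genes include genes down to a mean of 0.1 FPKM, whereas the lowest member mean was 2.38 FPKM. They are therefore not compared at like levels. The median log2 fold change of the members was 0.0061 at VILI0h and 0.066 at VILI6h against control, and the medians over all genes were -0.070 and -0.089. Between the VILI groups the member median was 0.012 against -0.024 over all genes. The direction of these medians depended on single libraries: without VILI6h replicate 1 they were -0.15 at VILI6h against control and -0.19 between the VILI groups, and without VILI0h replicate 3 the VILI0h median was -0.077. Without control replicate 3 the medians against control were -0.021 at VILI0h and -0.010 at VILI6h. Members fell on both sides of 0, with 18 positive and 18 negative at VILI0h, 22 and 14 at VILI6h, and 19 and 17 between the VILI groups.

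**Figure D1:**
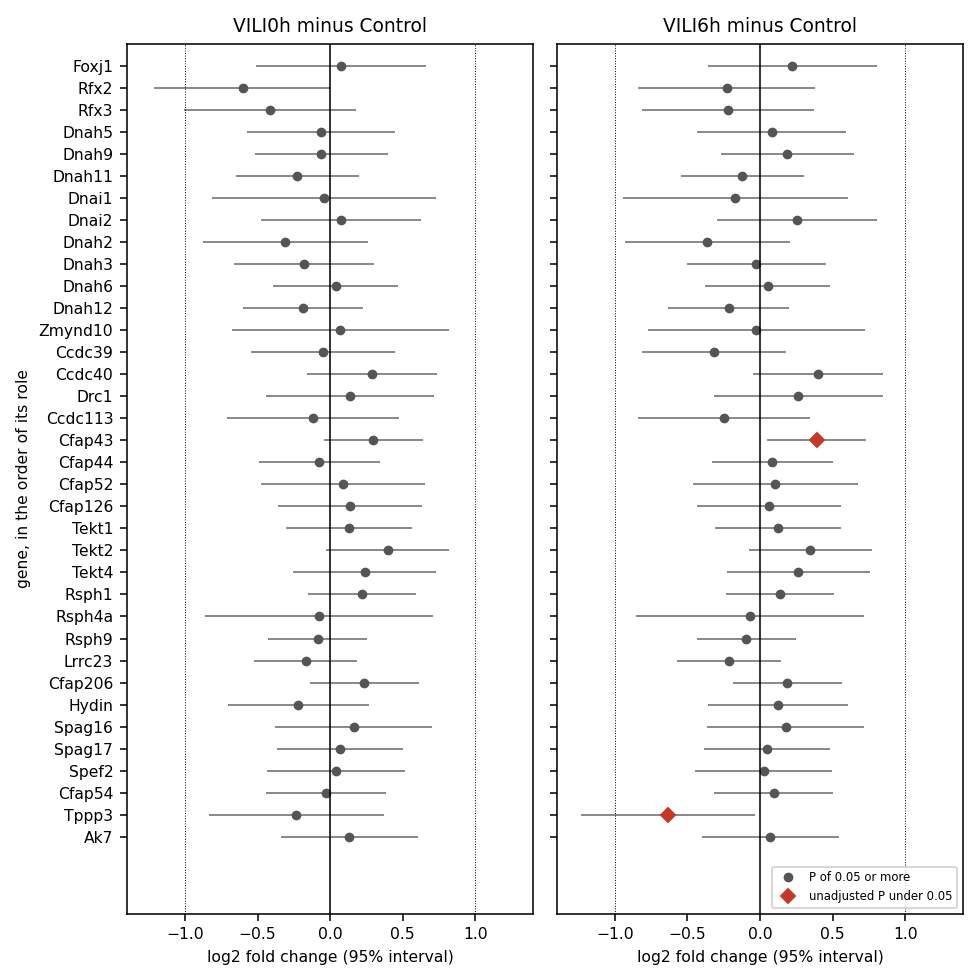
Log2 fold change of each of the 36 members (points) with its 95% interval (lines) for VILI0h and VILI6h against control, from limma on log2(FPKM + 0.1), with dotted lines at a 2-fold change. Most intervals span 0 and stay between the dotted lines; Cfap43 and Tppp3 at VILI6h (red diamonds) are the members with an unadjusted P under 0.05.

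Median-centring the libraries moved the share of higher genes among those with an unadjusted P under 0.05 from 42.1% to 61.2% at VILI0h and from 40.1% to 58.1% at VILI6h. It moved the median over all genes to 0.045 and 0.038, and the median of the members to 0.12 and 0.19. With this scaling 4 members were called higher at VILI0h (Rsph1, Cfap206, Tekt2 and Ccdc40) and 4 at VILI6h (Cfap206, Tekt2, Ccdc40 and Cfap43), and still none at an adjusted p under 0.05. Over all genes 10% and 11.7% were called higher in the same fit, so 4 of 36 is near the background share.

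Among the transcription factors, Rfx2 and Rfx3 were lower in every VILI0h library than in every control library, as were 21.6% of all genes. Foxj1 was not. Foxj1, a forkhead factor required to build motile cilia, was 18.5, 15.1 and 14.1 FPKM in control replicates 1 to 3. It was 13.0, 17.8 and 19.9 FPKM in VILI0h and 24.9, 20.9 and 12.1 FPKM in VILI6h. The groups overlap, and the highest and the lowest of the 9 values are both in VILI6h. The log2 fold change was 0.072 (SE 0.26, limma adjusted p = 0.920) at VILI0h and 0.22 (SE 0.26, adjusted p = 0.637) at VILI6h against control. Its sign at VILI0h turned when control replicate 3 or VILI0h replicate 3 was left out. Without VILI6h replicate 3 the VILI6h value was 0.53 (limma adjusted p = 0.280), past the unadjusted threshold, and without VILI6h replicate 1 it was 0.0083.

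Rfx2, which acts with Foxj1 on axonemal genes, measured 5.52, 4.95 and 4.74 FPKM in control, against 3.33, 3.20 and 3.35 FPKM in VILI0h. In VILI6h it was 7.23, 3.49 and 3.13 FPKM. VILI0h lies wholly below control, while VILI6h holds the highest and the lowest of the 9 values. The mean at VILI0h was 3.30 ± 0.082 against 5.07 ± 0.403 FPKM in control (SD, n = 3), a fold of 0.658 with a 95% interval of 0.431 to 1.01. In limma the log2 fold change was -0.60 (SE 0.27, P = 0.0524, adjusted p = 0.315), and the exact permutation test gave 0.1, the smallest two-sided p that 3 against 3 allows. The limma spread is shared with VILI6h, whose replicate 1 stands far above the others. With only the 6 libraries compared, the same difference had an adjusted p of 0.0226 in limma, in a fit that called 8.24% of all genes. Without VILI6h replicate 1 it was 0.0234, and 6.93% of all genes were called. Over 18 alternatives the adjusted p ranged from 0.0226 to 0.588. At VILI6h the log2 fold change of Rfx2 was -0.23 (SE 0.27, adjusted p = 0.642), and without replicate 1 it was -0.60 with an adjusted p of 0.0164, where 23.3% of all genes were called. Without VILI6h replicate 2 it was -0.084, and without VILI6h replicate 3 it was -0.0071.

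Rfx3, which also serves cilia of other cell types, was 6.37, 6.62 and 6.65 FPKM in control. It was 3.66, 5.19 and 6.16 FPKM in VILI0h and 8.11, 5.61 and 3.88 FPKM in VILI6h. VILI0h lies below control with a small gap, and VILI6h spans the control values. The log2 fold change was -0.41 (SE 0.26, limma adjusted p = 0.481) at VILI0h and -0.22 (SE 0.26, adjusted p = 0.650) at VILI6h. Without VILI6h replicate 3 the VILI6h value was 0.043.

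**Figure D2:**
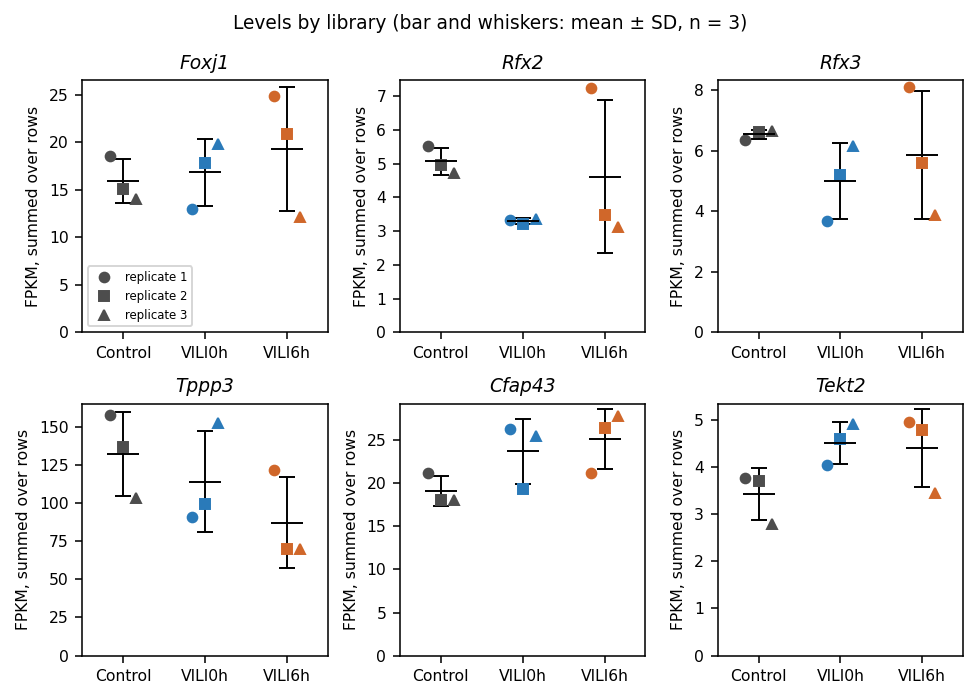
FPKM of Foxj1, Rfx2, Rfx3, Tppp3, Cfap43 and Tekt2 in each library (symbols mark replicates 1 to 3), with the mean and SD of each group (n = 3). Rfx2 in VILI0h sits between 3.20 and 3.35 FPKM, under the lowest control value of 4.74, and VILI6h replicate 1 stands above the other VILI6h libraries for each gene shown except Cfap43.

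The dynein arms gave no member at an unadjusted P under 0.05. Of the outer arm genes, the heavy chains Dnah5, Dnah9 and Dnah11 had means of 7.17, 4.19 and 2.85 FPKM over the 9 libraries. The intermediate chains Dnai1 and Dnai2 had means of 2.52 and 4.05 FPKM. The inner arm heavy chains Dnah2, Dnah3, Dnah6 and Dnah12 ranged from 2.38 to 10.6 FPKM, and Zmynd10, which helps assemble the arms in the cytoplasm, was at 3.52 FPKM. Dnah11 and Dnah2 were lower in all VILI0h libraries than in all controls, as were 21.6% of all genes.

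Dnah2 was 3.20, 2.66 and 2.38 FPKM in control, 2.31, 2.21 and 2.03 in VILI0h and 3.21, 1.63 and 1.75 in VILI6h. Replicate 1 of VILI6h alone reaches the control values. The log2 fold change was -0.31 (SE 0.25, limma adjusted p = 0.584) at VILI0h and -0.36 (SE 0.25, adjusted p = 0.427) at VILI6h. Without VILI6h replicate 1 the latter was -0.66 with an adjusted p of 0.0299, and its adjusted p ranged from 0.0299 to 0.746 over 18 alternatives. An antisense gene, Dnah2os, shares exon bases with Dnah2, and reads of the pair may not have been separated.

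Dnah9, a heavy chain of the distal outer arm, was 4.95, 3.83 and 3.40 FPKM in control, 3.81, 3.53 and 4.22 in VILI0h and 5.96, 3.78 and 4.26 in VILI6h. The 3 groups overlap. Between VILI6h and VILI0h the log2 fold change was 0.25 (SE 0.20, limma adjusted p = 0.731).

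The 11 ruler, dynein regulatory complex and doublet proteins held 1 call, Cfap43 at VILI6h. Cfap43, an axonemal protein required for sperm and airway ciliary beating, measured 21.2, 18.1 and 18.1 FPKM in control, against 26.3, 19.3 and 25.5 FPKM in VILI0h. It was 21.2, 26.5 and 27.9 FPKM in VILI6h. All VILI6h values lie above all control values, although VILI6h replicate 1 and control replicate 1 both round to 21.2 FPKM, and VILI0h overlaps control. At VILI0h the log2 fold change was 0.30 (SE 0.15, limma adjusted p = 0.368). The fold at VILI6h was 1.31 with a 95% interval of 1.04 to 1.66 (log2 0.39, SE 0.15, limma P = 0.0288, adjusted p = 0.198, exact permutation p = 0.1). The call was lost when control replicate 2 or 3 or VILI6h replicate 2 or 3 was left out, with P between 0.0829 and 0.0891. Without VILI6h replicate 1 the adjusted p was 0.0353, and over 18 alternatives it ranged from 0.0353 to 0.432.

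The difference in Cfap43 was carried by 1 of its 2 rows. The first row, with 63.6% of the gene's FPKM, was 11.2, 9.38 and 10.2 FPKM in control, 18.7, 11.8 and 17.5 in VILI0h and 12.2, 17.8 and 20.9 in VILI6h. The second row was 9.99, 8.72 and 7.90 FPKM in control, 7.56, 7.55 and 7.98 in VILI0h and 9.03, 8.66 and 6.93 in VILI6h. Only the first row is higher in all 6 VILI libraries than in all controls. The Cfap43 gene model (chr19:47736857-47919287, minus strand, GENCODE M21) shares 164 exon bases on the same strand with Itprip (chr19:47894602-47919299), and Itprip was not matched to a row here. Reads shared by this pair could enter the Cfap43 value, and their part in the result was not tested.

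Tekt2, a tektin filament of the doublets, was 3.77, 3.70 and 2.79 FPKM in control, 4.03, 4.60 and 4.90 in VILI0h and 4.95, 4.79 and 3.45 in VILI6h. VILI0h lies above control, and VILI6h overlaps it through replicate 3. The log2 fold change was 0.40 (SE 0.19, limma adjusted p = 0.340) at VILI0h and 0.35 (SE 0.19, adjusted p = 0.316) at VILI6h. Without VILI6h replicate 3 both passed the unadjusted threshold, with adjusted p of 0.200 and 0.246 in limma. Without VILI6h replicate 1 neither passed it, and the VILI6h value was 0.25. The 4 rows of Tekt2 do not share the order of their sum. On the row with the highest mean alone, the values were -0.29 and -0.60, and that row was 3.48, 0.832 and 1.55 FPKM in VILI0h.

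Ccdc40 and Ccdc39 together form the molecular ruler that sets the repeat of the axoneme. Ccdc40 was 5.25, 4.75 and 4.55 FPKM in control, 5.34, 5.64 and 6.91 in VILI0h and 8.10, 6.87 and 4.72 in VILI6h. Ccdc39 was 9.02, 8.68 and 9.19 FPKM in control, 6.66, 9.40 and 10.4 in VILI0h and 9.76, 6.81 and 5.53 in VILI6h. Ccdc40 is above all controls in VILI0h, and Ccdc39 overlaps control at both times. Against control at VILI6h the log2 fold change was 0.40 (SE 0.20, limma adjusted p = 0.287) for Ccdc40 and -0.32 (SE 0.22, adjusted p = 0.423) for Ccdc39. At VILI0h Ccdc40 had 0.29 (SE 0.20, adjusted p = 0.519). Each passed the unadjusted threshold at VILI6h with 1 library left out: Ccdc40 without replicate 3 (log2 0.61) and Ccdc39 without replicate 1 (log2 -0.54). Each was smaller with the other left out: Ccdc40 was 0.23 without replicate 1, and Ccdc39 was -0.13 without replicate 3. Ccdc39 shares exon bases with Ttc14 on the opposite strand.

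Cfap44, a partner of Cfap43, was 8.28, 7.93 and 6.36 FPKM in control, 6.59, 7.06 and 7.71 in VILI0h and 10.2, 7.89 and 6.20 in VILI6h. Its groups overlap, and the log2 fold change between the VILI groups was 0.16 (SE 0.19, limma adjusted p = 0.823). The other genes of this class, Drc1, Ccdc113, Cfap52, Cfap126, Tekt1 and Tekt4, had log2 fold changes from -0.12 to 0.24 at VILI0h and from -0.25 to 0.26 at VILI6h against control.

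The 5 radial spoke genes, Rsph1, Rsph4a, Rsph9, Lrrc23 and Cfap206, gave 0 calls at either time. Cfap206, needed at the base of the spokes, was 7.03, 7.10 and 7.40 FPKM in control, 8.29, 8.35 and 8.76 in VILI0h and 10.6, 8.05 and 6.40 in VILI6h. VILI0h is above control by more than the spread within either group. The log2 fold change at VILI0h was 0.24 (SE 0.17, limma adjusted p = 0.527). With only these 6 libraries in the fit the adjusted p was 0.126, and it ranged from 0.126 to 0.809 over 18 alternatives.

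The 5 central pair genes, Hydin, Spag16, Spag17, Spef2 and Cfap54, likewise gave 0 calls. Hydin, a giant protein of the central pair, was 4.27, 3.32 and 2.80 FPKM in control, 2.51, 3.13 and 3.17 in VILI0h and 4.76, 3.11 and 3.51 in VILI6h. The groups overlap at both times. Its log2 fold change between VILI6h and VILI0h was 0.34 (SE 0.22, limma adjusted p = 0.638), the lowest P of any member in that comparison.

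Tppp3 was the 1 member with a lower call. It was 158, 137 and 103 FPKM in control, 90.6, 99.4 and 152 in VILI0h and 122, 69.7 and 70.0 in VILI6h. VILI6h replicates 2 and 3 lie below all other libraries, and replicate 1 lies among the controls. The mean was 132 ± 27.5 FPKM in control and 87.1 ± 29.8 FPKM in VILI6h (SD, n = 3), a fold of 0.644 with a 95% interval of 0.425 to 0.977 (log2 -0.63, SE 0.27, limma P = 0.0404, adjusted p = 0.226, exact permutation p = 0.2). The call was lost in 9 of 18 alternatives, with P from 0.0505 to 0.135. Leaving out control replicate 1 or 2 or VILI6h replicate 2 or 3 was among them, and without VILI6h replicate 1 the adjusted p was 0.0257. Against VILI0h the log2 fold change at VILI6h was -0.40 (SE 0.27, limma adjusted p = 0.657). Ak7, an adenylate kinase of the axoneme, had 0.13 at VILI0h and 0.072 at VILI6h on the log2 scale.

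Members whose groups did not overlap were no more frequent than among all genes. At VILI0h 3 members lay wholly above control (Ccdc40, Tekt2 and Cfap206, against 12% of all genes) and 4 wholly below (Rfx2, Rfx3, Dnah11 and Dnah2, against 21.6%). At VILI6h 1 lay above (Cfap43, against 9.64% of all genes) and 0 below (15%). Between the VILI groups 0 lay above and 0 below (6.25% and 6.28% of all genes).

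The largest differences were between lungs of the VILI6h group. VILI6h replicate 1 was the highest of all 9 libraries for 28 of 36 members, against 19.4% of all genes, and the highest of its group for 35 of 36, against 50.9%. VILI6h replicate 3 was the lowest of the 9 for 21 of 36, against 31.3% of all genes. The ratio of replicate 1 to replicate 3 was above 1 for 35 of 36 members, with a median of 1.75, while over all genes 62.2% were above 1 and the median was 1.14. It was highest for Dnai1 at 2.89 and Rsph4a at 2.86, and Cfap43 alone was below 1, at 0.762. The ratio of highest to lowest library within VILI6h exceeded 1.5 for 29 members (53.3% of all genes). It did so for 4 members in control and 7 in VILI0h (20.3% and 33.7% of all genes). Members also shared an order within the other groups, over smaller ranges. VILI0h replicate 3 was the highest of its group for 28 of 36 members (29.3% of all genes) and VILI0h replicate 1 the lowest for 28 (40.9%). In control, replicate 1 was the highest for 23 (38.7%) and replicate 3 the lowest for 21 (39.1%).

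**Figure D3:**
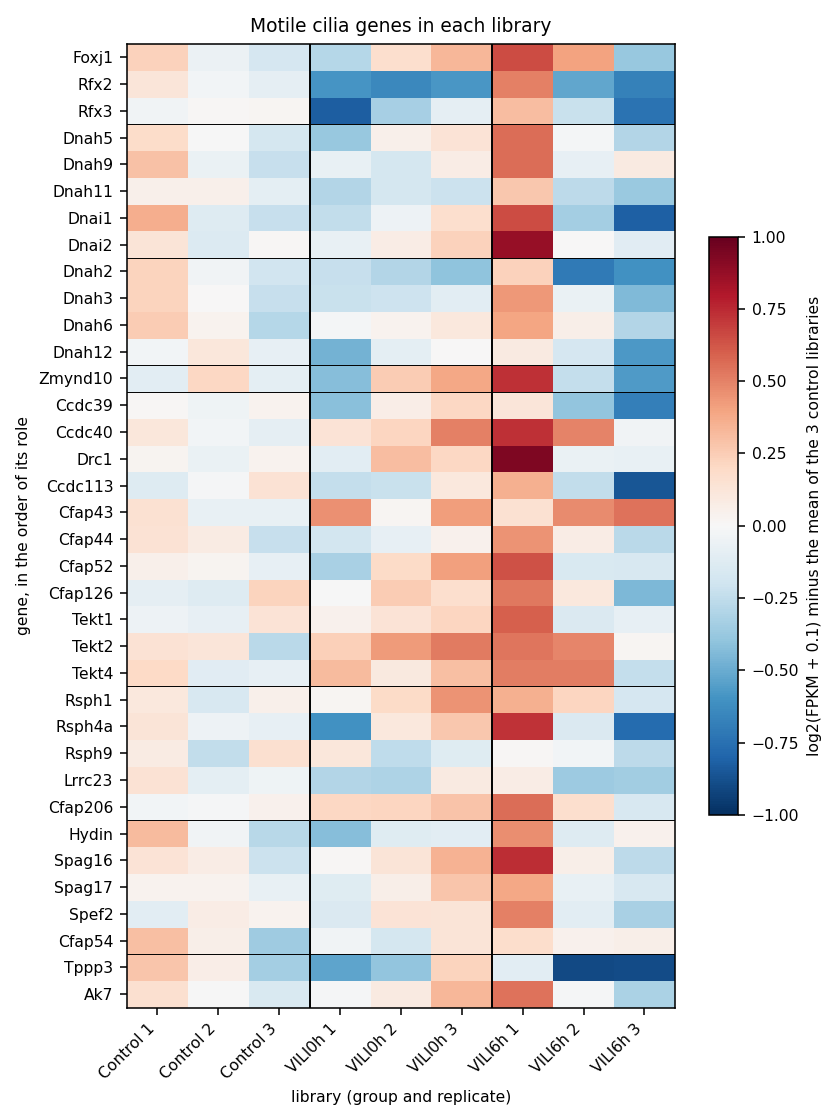
Log2(FPKM + 0.1) of the 36 members (rows, grouped by role) in the 9 libraries (columns), relative to the mean of the 3 control libraries, with red higher and blue lower. VILI6h replicate 1 is red for 35 of 36 members and replicate 3 is above the control mean for 5.

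The order of the VILI6h libraries was compared with that of other marker lists. The median level relative to the mean of control was 1.42-fold, 0.953-fold and 0.816-fold in VILI6h replicates 1 to 3 for the members. It was 1.29-fold, 0.965-fold and 0.675-fold for 12 ciliated cell markers that are not members, and 1.01-fold, 0.938-fold and 0.877-fold over all genes. The 15 club and goblet cell markers were at 1.32-fold, 0.958-fold and 1.10-fold, and their summed level was 43805, 26470 and 25362 FPKM. Replicate 1 is highest for both lists, while replicate 3 is below control for ciliated cell markers and above it in the median of the club and goblet cell markers. The few basal cell markers (6 tested) were at 1.77-fold, 1.08-fold and 1.45-fold, and 5 neuroendocrine cell markers were lowest in replicate 1, at 1.29-fold, 1.95-fold and 2.18-fold. Scgb1a1 was 39012, 23231 and 22061 FPKM and Cyp2f2 was 1185, 769 and 463 FPKM in these libraries.

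Some markers of cells outside the airway epithelium had the order of the members and others did not. Alveolar type 1 markers were at 2017, 1878 and 1439 FPKM. Markers listed as airway smooth muscle and cartilage (6 tested of 9 listed) were at 277, 216 and 160 FPKM. Both lists were highest in replicate 1 and lowest in replicate 3, as the members were. Neutrophil markers were lowest in replicate 1, with sums of 464, 999 and 1987 FPKM. Alveolar type 2 markers were close together at 12946, 13853 and 13451 FPKM, and endothelial markers were at 976, 1168 and 1163 FPKM. The part of these cell types in the member values was not tested.

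**Figure D4:**
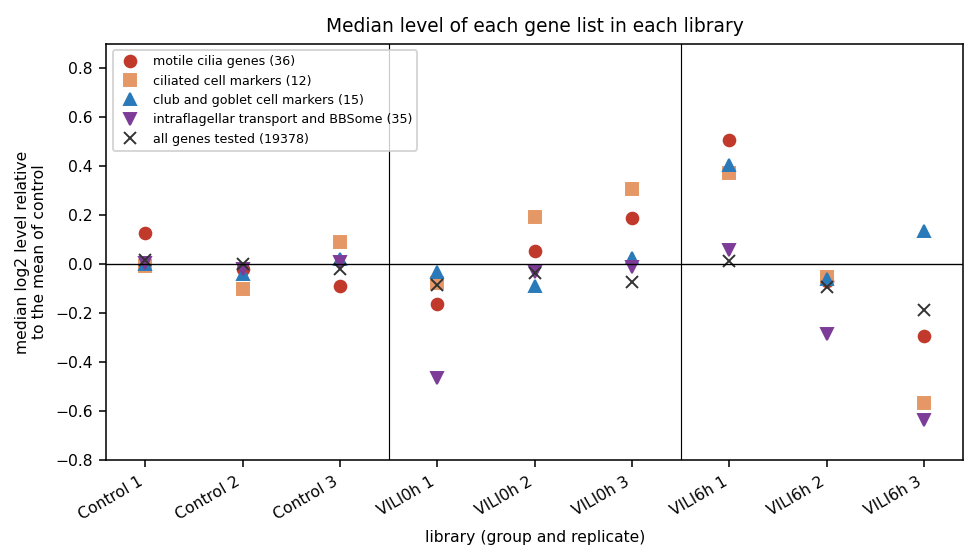
Median log2 level relative to the mean of control in each of the 9 libraries for the 36 members and 4 other sets of genes. In VILI6h the members and ciliated cell markers go from above to below the control mean between replicates 1 and 3, whereas all genes stay between 0.014 and -0.19.

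Genes around the members in the ciliary programme were counted in the same fit. At an unadjusted P under 0.05, 0 of 13 listed multiciliation regulators were higher and 2 lower at VILI0h, and 0 and 1 at VILI6h. The list is not limited to genes particular to multiciliated cells. Over all genes, 9.35% and 12.2% were lower. The median log2 fold change of the regulators was -0.38 and -0.32. Mcidas, which with Gmnc commits cells to the multiciliated fate, was 0.634, 0.797 and 0.564 FPKM in control, 0.260, 0.235 and 0.281 in VILI0h and 0.224, 0.625 and 0.531 in VILI6h. All VILI0h values are below control (log2 -1.08, SE 0.34, limma adjusted p = 0.175). Cdc20b was also lower at VILI0h (log2 -1.07, SE 0.47, adjusted p = 0.302) and Myb at VILI6h (log2 -0.64, SE 0.28, adjusted p = 0.236). Myb is also expressed in blood progenitors.

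Of 16 tested dynein assembly and docking factors, 0 were called at either time. Of 47 other axonemal genes, 0 were called at VILI0h, and 3 were higher and 1 lower at VILI6h, where 8.17% and 12.2% of all genes were, so neither count exceeds the background share. The higher genes were Cfap53 (log2 0.58, SE 0.15, limma adjusted p = 0.105), Cfap69 (log2 0.58, adjusted p = 0.128) and Rsph14 (log2 0.89, adjusted p = 0.198), and the lower gene was Dnal1, a light chain of the outer arm (log2 -0.48, adjusted p = 0.198). Cfap53 measured 3.13, 3.57 and 3.74 FPKM in control, against 5.06, 4.75 and 5.93 in VILI6h, with no overlap. These 3 higher genes had their highest value in VILI6h replicate 3, but most of the list did not: VILI6h replicate 1 was the highest of the 9 libraries for 34 of the 47 genes (72.3%) and replicate 3 the lowest for 26 (55.3%). Among the dynein assembly and docking factors replicate 1 was highest for 11 of 16 and replicate 3 lowest for 11 of 16, and among the intraflagellar transport and BBSome genes these counts were 17 and 23 of 35. The multiciliation regulators were mixed by gene: replicate 1 was highest for 4 of 13 and lowest for another 4, and replicate 3 was lowest for 4. Their median relative to the mean of control still had this order, at 0.925-fold, 0.828-fold and 0.770-fold in VILI6h replicates 1 to 3. The shares over all genes were 19.4% with replicate 1 highest and 31.3% with replicate 3 lowest.

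Intraflagellar transport and BBSome genes, which carry cargo along motile and primary cilia alike, had a median log2 fold change of -0.16 at VILI0h and -0.29 at VILI6h over 35 genes. At VILI0h 0 were higher and 1 lower, and at VILI6h 1 was higher and 3 lower. These counts too are under the shares over all genes (6.81% and 9.35% at VILI0h, 8.17% and 12.2% at VILI6h). Dync2h1, the motor of retrograde transport, was 9.91, 8.90 and 8.33 FPKM in control, 5.39, 6.57 and 5.78 in VILI0h and 7.39, 5.05 and 8.03 in VILI6h. It was below all controls at both times (log2 -0.61, SE 0.18, limma adjusted p = 0.152 at VILI0h, and -0.43, adjusted p = 0.227 at VILI6h). Ttc8 and Bbs4 of the BBSome were lower at VILI6h (log2 -0.53, limma adjusted p = 0.181, and -0.45, adjusted p = 0.186), and Ift57 was higher (log2 0.41, adjusted p = 0.137). Of the 12 ciliated cell markers, Tmem212 alone was called, higher at VILI0h (log2 0.28, SE 0.097, limma adjusted p = 0.209).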

How the data were processed

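Libraries were made from rRNA-depleted total lung RNA. The sample records name a TruSeq kit and the study's methods a directional NEBNext kit, and the strand setting of the quantification is not given in the sources used here. Of the members, 13 share exon bases with another annotated gene, 12 of them on the opposite strand. Per the labels and methods, the authors aligned reads with TopHat2 2.0.9 (Bowtie2 2.0.6, GRCm38), assembled transcripts with Scripture and Cufflinks and deposited FPKM per transcript from Cuffdiff 2.1.1, with 60108 rows and no transcript IDs. How Cuffdiff split reads between rows affects single rows more than gene sums.

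From these, FPKM were summed per gene (24 members had more than 1 row, 12 had 1). Of 23713 Ensembl gene IDs, 23503 matched a GENCODE M21 symbol. Dnai1 and Dnai2 are listed there as Dnaic1 and Dnaic2. A linear model was fitted with limma 3.58.1 (R 4.3.3; lmFit, then eBayes with trend) to log2(FPKM + 0.1) for genes with a mean of at least 0.1 FPKM, in 1 fit of the 9 libraries with Benjamini-Hochberg adjustment over all genes. Fold changes are on this scale, which understates changes of low genes. The p-values measure the spread between 3 lungs per group. Single members were also compared by a two-sided exact permutation test. Values per library are given for Foxj1, Rfx2 and Rfx3, the 3 members with the highest mean, and the 6 with the lowest P in each comparison. Members and lists were chosen with earlier results of these data known, and no set test was run. Alternatives were pseudocounts of 0.01 and 1, a minimum mean of 1 FPKM, no filter, median-centring, the row with the highest mean, only the 6 libraries compared, no trend, a replicate block and each library left out. The procedure was tested on simulated data with noise independent between genes and changes larger than those of any member. That test does not show how well changes of the members' size would be found. Promoters came from RefSeq (GRCm38.p6). Python 3.11.15, numpy 2.4.6, pandas 2.3.3 and matplotlib 3.10.9 were also used.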

Additional observations from a re-analysis of the deposited data

How the results depend on the processing

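Of 432 values of single named members under the alternatives, 384 kept their direction and their side of an unadjusted P of 0.05, 25 passed it only under the alternative, 13 no longer passed it and 10 turned sign. The medians of the members moved by less than the spread between libraries in each alternative run, but their sign turned without control replicate 3, any 1 of the VILI0h replicates or VILI6h replicate 1, each in at least 1 comparison. With a library left out they ranged from -0.077 to 0.14 at VILI0h and from -0.15 to 0.23 at VILI6h against control, and from -0.19 to 0.18 between the VILI groups. The cause of the other changes was not tested. The count of members at an unadjusted P under 0.05 at VILI0h against control was 0 as reported. It became 4 with median-centred libraries, 2 with the row of the highest mean, 3 with only the 6 libraries compared and 1 with a replicate block (16.4%, 14.0%, 26.3% and 14.5% of all genes). With a library left out it ranged from 0 to 2 (10.2% to 23.2% of all genes). At an adjusted p under 0.05 the count became 1 (Rfx2) with only the 6 libraries (8.24% of all genes). With a library left out the adjusted count ranged from 0 to 1, the 1 without VILI6h replicate 1 (6.93%). At VILI6h against control the reported 2 became 4 with median-centring (20.2% of all genes). It became 1 with no filter, with the row of the highest mean, with no trend and with a replicate block (17.8%, 17.8%, 19.2% and 18.0%). With a library left out it ranged from 0 to 8 (13.1% to 38.8% of all genes). The adjusted count ranged from 0 to 4, the 4 without VILI6h replicate 1 (23.3%). The 8 came without VILI6h replicate 1 (Dnah2, Tppp3, Rfx2, Ccdc39, Lrrc23, Ccdc113, Cfap43 and Dnai1), where 38.8% of all genes passed, against 20.4% with all libraries. Without VILI6h replicate 3 there were 5 (Tekt4, Cfap206, Tekt2, Foxj1 and Ccdc40), where 14.1% of all genes passed. Without control replicate 2 or VILI6h replicate 2 there were 0, and without control replicate 1 or 3 there was 1. Between the VILI groups the count ranged from 0 to 2 with a library left out (7.26% to 22.4% of all genes).

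On the row with the highest mean, the log2 fold change of Tekt2 turned to -0.29 at VILI0h and -0.60 at VILI6h. With a library left out, Foxj1 at VILI0h ranged from -0.056 (without VILI0h replicate 3) to 0.25 and was -0.011 without control replicate 3. Rfx3 at VILI6h ranged from -0.48 to 0.043, the latter without VILI6h replicate 3. Between the VILI groups, Foxj1 ranged from -0.064 to 0.45, Rfx3 from -0.068 to 0.45 and Cfap44 from -0.022 to 0.33, each lowest without VILI6h replicate 1, and without VILI0h replicate 1 Foxj1 was -0.025 and Rfx3 -0.011.

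Same-numbered libraries of different groups deviated from their group means with correlations from -0.22 to 0.017, so the numbers do not pair the samples. With the number as a replicate block, 1 member passed an unadjusted P of 0.05 at VILI0h (Rfx2) and 1 at VILI6h (Cfap43), and 14.5% and 18.0% of all genes did. Mapped reads per library are stated by the study, but the fragments behind each gene's FPKM are unknown, and 3 lungs per group limit the intervals.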
